A study of Homo sapiens with 12 samples.

Results

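The serine, one-carbon and asparagine synthesis genes examined here are 10 enzymes of amino acid synthesis and mitochondrial folate metabolism: ASNS, PHGDH, PSAT1, PSPH, SHMT2, MTHFD2, ALDH1L2, PYCR1, CTH and CBS. They were chosen by symbol, as enzymes known to be targets of the transcription factor ATF4, from a table of 60662 genes. Earlier results of these data were known when they were chosen. All 10 were found once in the table. NCI-H295R, an established cortisol-secreting cell line from a human adrenocortical carcinoma, was grown to confluence and kept in serum-free medium for 12 h. The cultures then received vehicle (VEH, 0.1% DMSO), 30 µM CJ28 or 30 µM metyrapone (MET) for 24 h, and the RNA of 4 biological replicates per group was sequenced. CJ28 is a benzimidazolylurea derivative that lowers cortisol production, and MET is an inhibitor of 11β-hydroxylase, the enzyme of the last step to cortisol. The same cell line and the same serum-free medium underlie all 12 samples. Whether the replicates came from separate passages is not given in the sources used here, so the p-values measure the spread between these samples only.

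Cells make serine from the glycolytic intermediate 3-phosphoglycerate in 3 steps, catalysed in turn by PHGDH, PSAT1 and PSPH. SHMT2 splits serine into glycine and a one-carbon unit inside mitochondria, and MTHFD2 and ALDH1L2 oxidise that unit further while it is bound to folate. ASNS makes asparagine from aspartate, PYCR1 makes proline, and CBS and CTH make cysteine from homocysteine and serine. When amino acids run short or mitochondria are disturbed, translation of ATF4 increases, and ATF4 binds composite C/EBP-ATF elements at many of these genes.

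The element is best known from the promoter of ASNS, which is shown because that gene had among the largest log2 fold changes of the 10 with CJ28. The RefSeq promoter table, on build GRCh38.p14, held 9 promoters for 6 of the 10 genes. PSPH, SHMT2, ALDH1L2 and PYCR1 had no entry. The 100 bases before one ASNS start site, from position -100 to -1 at chr7:97872409-97872508 on the minus strand, are printed from 5′ to 3′, with both nutrient-sensing elements in capitals.

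ASNS: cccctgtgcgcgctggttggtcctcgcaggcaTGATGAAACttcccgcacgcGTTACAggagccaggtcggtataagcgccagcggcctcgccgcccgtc

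The first element holds the letters TGATGNAA at -68 to -61, and the second, GTTACA, lies at -48 to -43. On both strands, TGATGNAA was present in 3.62% and GTTACA in 6.66% of the 35116 promoters in the table, all read over windows of the same length. Neither was found in the other 8 promoters, those of PHGDH, PSAT1, MTHFD2, CTH, the 3 of CBS and the second of ASNS, which says only that these letters are not in those windows.

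The deposited values are TPM, a length-corrected measure of how much of a sample's RNA comes from each gene. TPM can be compared between genes, but it does not keep sequencing depth, and between 29463 and 31016 genes were above 0 in each sample. Changes were tested on log2(TPM + 0.1) with limma over the 16815 genes that reached 0.5 TPM in 4 or more samples, and a gene was called at an adjusted p under 0.05. CJ28 changed most of the tested genes: 57.0% of them were called against VEH, 19.9% higher and 37.1% lower. Over all tested genes the median was -0.13 on the log2 scale, and nuclear protein-coding genes took 21.3% to 21.4% of TPM in CJ28 against 24.3% to 24.8% in VEH. Median-of-ratios scaling, which moved that median to 0.014, turned the lower share of called genes from 65.1% to 47.4%. Summed TPM of 10 adrenocortical markers (among them NR5A1, STAR and CYP17A1) was 273.8 to 284.3 in VEH, 272.6 to 286.9 in MET and 109.9 to 117.7 in CJ28, and the 9 markers tested were all called lower in CJ28. What part this decrease had in the changes of the 10 genes was not tested. Of the 6 chromaffin cell markers, TH and SLC18A1 were listed at 0 in every sample, and their sum was 5.02 to 7.40, most of it CHGB. The sums of 4 endothelial, 4 fibroblast and 4 immune cell markers were at most 0.11, 1.15 and 0.82. In RNA of whole cultures, fewer cells that express a gene and less of its RNA per cell cannot be told apart.

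With CJ28, 8 of the 10 genes were called higher than in VEH, PSPH was called lower, and CTH did not pass the test. ASNS, SHMT2, PYCR1, CBS and PSAT1 rose between 2.44-fold and 3.96-fold in mean TPM, MTHFD2 rose 1.81-fold and PHGDH 1.41-fold. ALDH1L2 also rose, but it had passed the filter on low values through the CJ28 samples, so it had to differ in order to be tested. Without it, 7 of 9 genes were called higher and 1 lower, where 19.9% of all tested genes were called higher and 37.1% lower. The median log2 fold change was 1.32 over the 10 genes and 1.29 over these 9, beside the -0.13 of all tested genes. CJ28 and VEH samples did not overlap for 9 of the 10 genes, against 50.3% of all tested genes. Without ALDH1L2, 7 of 9 genes were higher without overlap and 1 was lower without overlap. After median-of-ratios scaling the same counts of 8 higher, again with ALDH1L2, and 1 lower were obtained. Of all 16815 tested genes, 4925 were then called higher and 4430 lower. The summed TPM of the 10 genes was 227.4 to 242.7 in VEH, 226.6 to 234.0 in MET and 547.3 to 576.7 in CJ28.

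**Figure D1:**
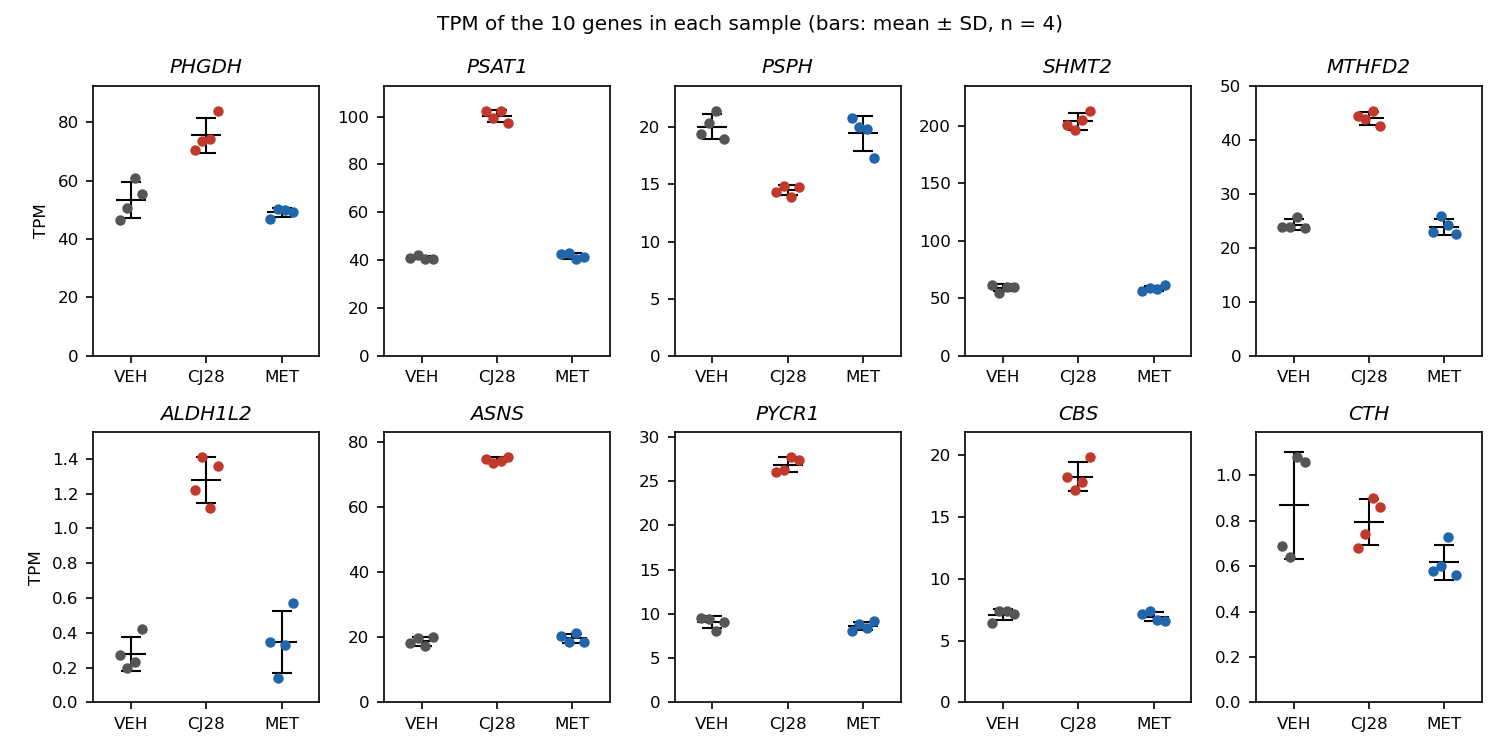
TPM (vertical axis, from 0) of each of the 10 genes in the 4 VEH, 4 CJ28 and 4 MET samples, with 1 point per sample and bars for mean ± SD. The CJ28 points lie above all others for 8 genes, below all others for PSPH, and among the others for CTH, while the VEH and MET points overlap in every panel.

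The enzymes of serine synthesis moved in different directions. PHGDH (ENSG00000092621.12, chromosome 1, 119648411 to 119744226 on GRCh38), the enzyme of the first step, had 46.46, 50.60, 60.99 and 55.47 TPM in VEH-1 to VEH-4 and 70.35, 73.39, 74.13 and 83.98 TPM in CJ28-1 to CJ28-4. Every CJ28 sample exceeded every VEH sample, although the VEH samples were themselves spread widely, with a coefficient of variation of 11.7%. The log2 fold change was 0.50 (standard error 0.076, limma adjusted p = 1.04e-04), the smallest rise among the 8 genes. PSAT1 (ENSG00000135069.14, chromosome 9, 78297125 to 78330093), the aminotransferase of the second step, had 40.91, 42.18, 40.57 and 40.58 TPM in VEH and 102.37, 99.29, 102.50 and 97.21 TPM in CJ28. Replicates were close together, with a coefficient of variation of 1.86% in VEH and 2.55% in CJ28, and the log2 fold change was 1.29 (standard error 0.032, limma adjusted p = 9.18e-12). PSPH (ENSG00000146733.14, chromosome 7, 56011051 to 56051604), the phosphatase that releases serine in the last step, had 19.40, 20.35, 21.46 and 18.97 TPM in VEH and 14.36, 14.86, 13.93 and 14.78 TPM in CJ28. All 4 CJ28 samples were thus below all 4 VEH samples. Its log2 fold change was -0.47 (standard error 0.058, limma adjusted p = 2.17e-05), and -0.31 after median-of-ratios scaling (limma adjusted p = 0.00118).

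The balance of the serine enzymes differed accordingly between treatments. PSAT1 had 1.89 to 2.14 times the TPM of PSPH in VEH, 2.03 to 2.38 times in MET and 6.58 to 7.36 times in CJ28. PHGDH had 2.39 to 2.92 times the TPM of PSPH in VEH, 2.26 to 2.85 times in MET and 4.90 to 5.68 times in CJ28. These ratios do not depend on how a sample is scaled. They were formed after the values had been seen and were not tested.

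SHMT2, MTHFD2 and ALDH1L2, the mitochondrial one-carbon enzymes among the 10 genes, were each called higher in CJ28. SHMT2 (ENSG00000182199.11, chromosome 12, 57229573 to 57234935), the serine hydroxymethyltransferase of mitochondria, had 61.58, 54.83, 59.91 and 60.14 TPM in VEH and 200.41, 196.62, 204.67 and 213.21 TPM in CJ28. It held the highest mean level of the 10 genes in all 3 groups, although in VEH its samples overlapped with those of PHGDH. The part of SHMT2 in the summed TPM of the 10 genes was 25.3% ± 1.36 (SD, n = 4) in VEH, 25.6% ± 0.982 in MET and 36.4% ± 0.438 in CJ28. The log2 fold change was 1.78 (standard error 0.042, limma adjusted p = 5.63e-12). MTHFD2 (ENSG00000065911.12, chromosome 2, 74198610 to 74217565), a mitochondrial methylenetetrahydrofolate dehydrogenase, had 23.88, 23.93, 25.79 and 23.66 TPM in VEH and 44.41, 43.87, 45.49 and 42.60 TPM in CJ28. The groups were far apart relative to their spread, and MTHFD2 rose by 0.86 on the log2 scale (standard error 0.047, limma adjusted p = 9.80e-09). ALDH1L2 (ENSG00000136010.14, chromosome 12, 105019784 to 105107643), which oxidises mitochondrial formyltetrahydrofolate, had 0.27, 0.20, 0.23 and 0.42 TPM in VEH and 1.22, 1.41, 1.12 and 1.36 TPM in CJ28. It was the lowest of the 10 genes in VEH, and 5 of the 12 samples reached 0.5 TPM, 4 of them CJ28. Its mean TPM was 4.56 times that of VEH. Its log2 fold change of 1.89 (standard error 0.28, limma adjusted p = 1.06e-04) understates that ratio because of the pseudocount, and ranged from 0.83 with a pseudocount of 1 to 2.20 over the alternatives tried.

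**Figure D2:**
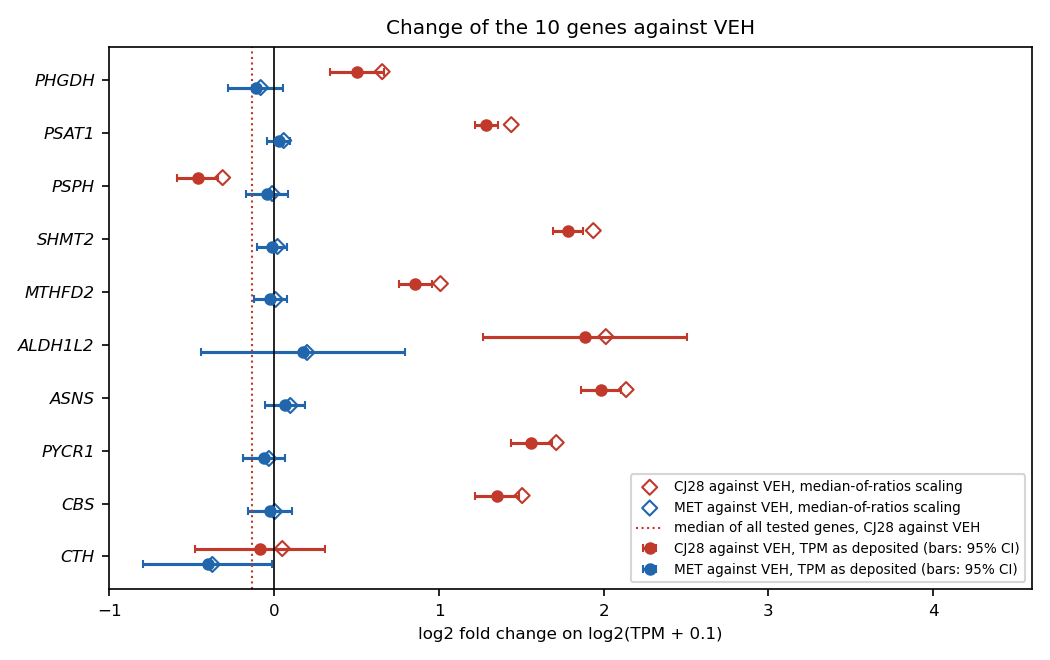
Log2 fold changes on log2(TPM + 0.1) (horizontal axis) of the 10 genes for CJ28 and for MET against VEH, with filled circles and 95% confidence intervals from limma for TPM as deposited and open diamonds after median-of-ratios scaling. The CJ28 values run from -0.47 for PSPH to 1.98 for ASNS and shift to the right by about the distance of the dotted line from 0, whereas the MET intervals include 0 for every gene but CTH.

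Several of these enzymes have isoenzymes in another compartment or with another tissue distribution. The log2 ratio of TPM + 0.1 of the pair within each sample hardly depends on the scaling of that sample. The exception is ALDH1L2, whose values lie near the pseudocount. The ratio of SHMT2 to its cytosolic counterpart SHMT1 was 2.18 ± 0.091 (SD, n = 4) on the log2 scale in VEH, 2.25 ± 0.091 in MET and 4.21 ± 0.063 in CJ28. CJ28 thus exceeded VEH by 2.03 and MET by 1.97. SHMT1 itself had 12.57 to 13.55 TPM in VEH and 10.48 to 11.18 TPM in CJ28. Its change of -0.25 on the log2 scale (standard error 0.052, limma adjusted p = 0.0015) did not pass after median-of-ratios scaling (-0.094, limma adjusted p = 0.186). MTHFD2 rose by 1.04 relative to MTHFD2L, the other mitochondrial dehydrogenase, and by 0.91 relative to MTHFD1, the cytosolic enzyme, neither of which passed the test for CJ28 against VEH. The mean log2 ratio of MTHFD2 to MTHFD1 changed sign, from -0.10 ± 0.16 in VEH to 0.80 ± 0.20 in CJ28.

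For ALDH1L2 and its cytosolic counterpart ALDH1L1, the log2 ratio was -4.98 ± 0.28 in VEH and -3.93 ± 0.18 in CJ28. ALDH1L1 remained the far more abundant of both, and it rose from 11.7 ± 0.888 to 20.8 ± 1.08 TPM. This ratio depends on the pseudocount: its difference between CJ28 and VEH was 1.05, but 0.047 with a pseudocount of 1 and 1.36 with 0.01. Against MET it was 0.83, but -0.061 with a pseudocount of 1, and with that pseudocount the CJ28 samples overlapped with both other groups. The pairs were chosen with earlier results of these data known. SHMT2, MTHFD2 and ALDH1L2 on their own were already separate between CJ28 and both other groups, so the ratio tests are not independent of that result. ALDH1L2 had also passed the filter through its CJ28 samples, and how often other pairs of genes would separate was not tested. With the pseudocount of 0.1, the groups were fully separate in all 8 comparisons of these 4 pairs that involve CJ28. Each gave the lowest p that an exact permutation of 4 against 4 samples can reach, 0.0286 (two-sided). After adjustment over the 15 tests run, this exact permutation p was 0.0429. That adjusted value rests on 10 of the 15 tests reaching the lowest p. With a pseudocount of 1 only 8 tests reached it, too few for any ratio to stay under 0.05 after adjustment. For MET against VEH none of the 4 ratios passed, and the lowest p in the same exact permutation test was 0.4.

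**Figure D3:**
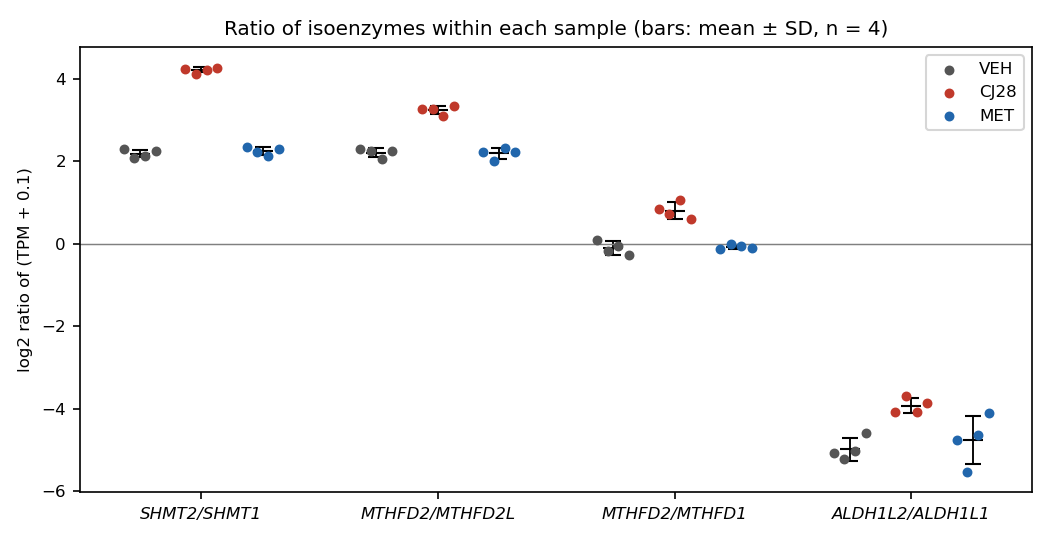
Log2 ratio of TPM + 0.1 (vertical axis) of 4 isoenzyme pairs within each sample, with 1 point per sample and bars for mean ± SD. CJ28 points lie above the VEH and MET points in all 4 pairs, and the mean moves from below to above 0, the line of equal TPM, for MTHFD2/MTHFD1.

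ASNS (ENSG00000070669.17, chromosome 7, 97851677 to 97872542), asparagine synthetase, had 18.16, 19.86, 17.24 and 19.98 TPM in VEH and 74.90, 73.72, 74.19 and 75.43 TPM in CJ28. The 4 CJ28 samples agreed within a coefficient of variation of 1.01%, the smallest of the 10 genes in any group. The log2 fold change of 1.98 (standard error 0.055, limma adjusted p = 2.48e-11) placed ASNS at rank 62 of the 16815 tested genes, counted from the largest rise. In the same order PHGDH stood at rank 1760 and PSPH at rank 12601. ASNSP1, a transcribed unprocessed pseudogene of ASNS, had 0.47 to 0.63 TPM in VEH, 0.48 to 0.80 TPM in MET and 5.32 to 6.20 TPM in CJ28. Its log2 fold change was 3.12 (standard error 0.14, limma adjusted p = 1.59e-09), but reads of the gene and its copy could have been divided between them by the authors' quantification. Even in CJ28 the copy stayed far below the 74.6 ± 0.756 TPM of ASNS.

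PYCR1 (ENSG00000183010.17, chromosome 17, 81932384 to 81942412), which catalyses the last step of proline synthesis, had 9.59, 9.43, 8.11 and 9.09 TPM in VEH and 26.01, 26.27, 27.73 and 27.42 TPM in CJ28. The log2 fold change was 1.56 (standard error 0.058, limma adjusted p = 2.78e-10). The lowest CJ28 sample was well above the highest VEH sample, and MET, at 8.11 to 9.18 TPM, lay within the range of VEH.

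CBS and CTH, the successive enzymes of transsulfuration, did not move together. CBS (ENSG00000160200.17, chromosome 21, 43053191 to 43076943), cystathionine β-synthase, had 6.43, 7.39, 7.35 and 7.13 TPM in VEH and 18.24, 17.13, 17.77 and 19.82 TPM in CJ28. Its log2 fold change was 1.35 (standard error 0.062, limma adjusted p = 2.01e-09). GRCh38 holds a near-identical copy, CBSL, between which and CBS reads could have been split, and its values were erratic within groups, with a mean of 0.535 ± 0.488 TPM in VEH and 0.997 ± 1.23 TPM in CJ28. The sum of both genes, 7.61 ± 0.777 TPM (SD, n = 4) in VEH, 7.27 ± 0.758 in MET and 19.2 ± 1.19 in CJ28, was again separate between CJ28 and VEH. CTH (ENSG00000116761.12, chromosome 1, 70411218 to 70439851), cystathionine γ-lyase, had 0.69, 0.64, 1.08 and 1.06 TPM in VEH and 0.68, 0.74, 0.90 and 0.86 TPM in CJ28. The groups overlapped, and the log2 fold change was -0.087 with a 95% confidence interval of -0.48 to 0.31 (limma adjusted p = 0.706). That interval lies below those of all 8 genes that rose, of which PHGDH, from 0.34 to 0.67, came nearest. CBS had 6.73 to 11.5 times the TPM of CTH in VEH and 19.7 to 26.8 times in CJ28, a ratio formed after the values had been seen and not tested.

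Of the 17 genes in the table that are CBSL or carry the name of one of the 10 genes as a numbered pseudogene, 7 were listed at 0 in all samples and 15 were below 1 TPM in every sample. ASNSP1 and CBSL were the exceptions. PSPHP1, a pseudogene of PSPH, had at most 0.80 TPM in any sample.

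With MET, none of the 10 genes was called against VEH by limma, where 0.00595% of all tested genes (1 of 16815) were called, and none lacked overlap between the groups, against 2.81% of all tested genes. At an unadjusted p under 0.05 there was 1 gene, CTH, with 0.58, 0.60, 0.73 and 0.56 TPM in MET. Its log2 fold change was -0.40 (95% confidence interval -0.80 to -0.012, limma adjusted p = 0.933), and its samples overlapped with those of VEH. For the other genes above 1 TPM, log2 fold changes with MET lay between -0.11 for PHGDH (interval -0.28 to 0.052) and 0.067 for ASNS (interval -0.053 to 0.19). The intervals of SHMT2, from -0.10 to 0.080, and of PSAT1, from -0.043 to 0.096, were among the narrowest. ALDH1L2, with 0.35, 0.14, 0.33 and 0.57 TPM in MET, had the widest, from -0.44 to 0.80.

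CJ28 and MET, given at the same dose and for the same time, were also compared directly, as the difference that answers whether these cortisol inhibitors act alike on the 10 genes. Of the 10 genes, 8 were called higher and 1 lower in CJ28 than in MET, where 55.5% of all tested genes were called, 20.9% higher and 34.6% lower. Without ALDH1L2, which entered the test through its CJ28 samples, 7 of 9 were called higher and 1 lower. Log2 differences ranged from 0.62 for PHGDH (standard error 0.076, limma adjusted p = 1.89e-05) to 1.92 for ASNS (standard error 0.055, limma adjusted p = 3.34e-11) among the genes that were higher. PSPH was lower in CJ28 by a log2 difference of -0.42 (standard error 0.058, limma adjusted p = 5.22e-05). CTH differed by 0.32 with an interval of -0.075 to 0.71 (limma adjusted p = 0.156). Because CJ28 against MET and CJ28 against VEH share the CJ28 samples, these values are not independent of those against VEH.

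The order of the levels in MET was that of VEH, except that ASNS stood above PSPH, with overlap, and it was different in CJ28. In VEH, SHMT2 (59.1 ± 2.95 TPM, SD, n = 4) and PHGDH (53.4 ± 6.27) were highest and overlapped, followed by PSAT1 (41.1 ± 0.763) and MTHFD2 (24.3 ± 0.99). PSPH (20.1 ± 1.11) and ASNS (18.8 ± 1.34) followed and overlapped each other. PYCR1 (9.06 ± 0.664), CBS (7.08 ± 0.445), CTH (0.868 ± 0.235) and ALDH1L2 (0.280 ± 0.0976) came next, each separate from its neighbour. In CJ28 the order was SHMT2 (204 ± 7.13), PSAT1 (100.3 ± 2.56), PHGDH (75.5 ± 5.91), ASNS (74.6 ± 0.756), MTHFD2 (44.1 ± 1.20), PYCR1 (26.9 ± 0.845), CBS (18.2 ± 1.15), PSPH (14.5 ± 0.429), ALDH1L2 (1.28 ± 0.132) and CTH (0.795 ± 0.102). Only PHGDH and ASNS overlapped there. PSPH thus stood above ASNS, PYCR1 and CBS in VEH and below all of them in CJ28, and ALDH1L2 and CTH changed places.

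Other genes of the same pathways were read from 5 lists of 58 genes, of which 47 were tested. CJ28 changed 35 of them against VEH (74.5%, beside 57.0% of all tested genes), 14 higher and 21 lower, with a median log2 fold change of -0.11. Of all tested genes, 19.9% were called higher and 37.1% lower. After median-of-ratios scaling 31 of the 47 were called, 17 higher and 14 lower, where 4925 and 4430 of all 16815 tested genes were higher and lower. The counts of the single lists below are to be read beside these shares. With MET, limma called 0 of the 47.

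Among 17 tested folate enzymes, 5 were higher and 6 lower (6 and 4 after scaling). TYMS, thymidylate synthase, fell from 30.4 ± 4.37 to 11.8 ± 1.28 TPM. On the log2 scale this was a change of -1.36 (limma adjusted p = 1.33e-07), opposite in direction to SHMT2 and MTHFD2. MTHFD1L, the mitochondrial formate-releasing enzyme, rose by 0.51 on the log2 scale (limma adjusted p = 0.00208). DMGDH, dimethylglycine dehydrogenase, rose from 0.11 to 0.39 TPM in VEH to 4.26 to 5.13 TPM in CJ28. DMGDH, like ALDH1L2, passed the filter through the CJ28 samples.

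Of 8 tested genes of serine and glycine metabolism, 2 were higher and 4 lower, and 4 higher and 2 lower after scaling. SDSL, a serine dehydratase-like gene, rose by 0.79 on the log2 scale (limma adjusted p = 3.54e-05). SFXN1, the mitochondrial serine carrier, and GCSH, of the glycine cleavage system, fell by 0.31 and 0.33 (limma adjusted p = 1.25e-05 and 2.79e-04). After scaling these values were -0.16 and -0.18 (limma adjusted p = 0.00424 and 0.0262). Of 5 tested proline genes, 1 was higher and 4 were lower (1 and 3 after scaling). OAT, ornithine aminotransferase, fell from 25.6 ± 0.922 to 17.1 ± 1.05 TPM, and PYCR3 and ALDH4A1 fell by 0.56 on the log2 scale, close to the 0.58 of OAT (limma adjusted p = 0.00155, 0.00487 and 4.64e-07).

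Of 7 tested genes of aspartate, asparagine and glutamine metabolism, 2 were higher and 4 lower (2 and 3 after scaling). The transaminases GPT2 and GOT1 rose by 1.13 and 0.81 on the log2 scale (limma adjusted p = 2.73e-07 and 1.07e-07), GOT2 fell by 0.32 and GLUL, glutamine synthetase, by 0.57 (limma adjusted p = 8.36e-05 and 4.07e-08). After scaling GOT2 had -0.17 (limma adjusted p = 0.00222). Of 10 tested genes of the methionine cycle and transsulfuration, 4 were higher and 3 lower (4 and 2 after scaling). GCLM, a subunit of the enzyme that starts glutathione synthesis, rose by 0.52, and MAT2A and AHCY of the methionine cycle fell by 0.51 and 0.50 on the log2 scale (limma adjusted p = 8.62e-05, 3.31e-05 and 1.07e-06).

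**Figure D4:**
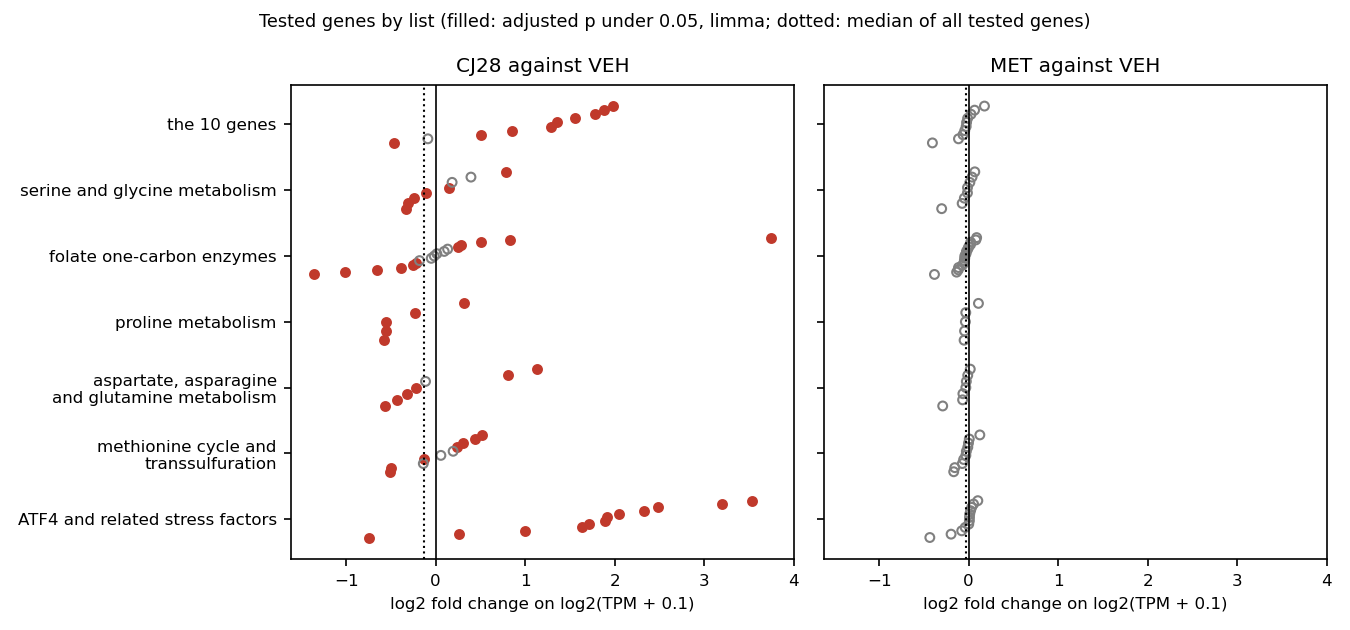
Log2 fold changes on log2(TPM + 0.1) (horizontal axis) of the tested genes of each list for CJ28 (left) and MET (right) against VEH, with 1 point per gene, filled where the limma adjusted p was under 0.05. The 10 genes and the stress factors lie mostly to the right for CJ28, the other lists lie on both sides of the dotted median of all tested genes, and no point is filled for MET.

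Among 12 genes for ATF4 and related stress factors, 11 were higher and 1, ATF5, was lower in CJ28, before and after scaling. Of all tested genes, 19.9% were called higher and 37.1% lower, and after scaling 4925 and 4430 of 16815. This list, too, was chosen with earlier results of these data known. ATF4 RNA had 66.86 to 73.03 TPM in VEH and 80.72 to 86.21 TPM in CJ28. It rose by 0.26 on the log2 scale (standard error 0.034, limma adjusted p = 3.61e-05). TRIB3 and DDIT3, both induced by ATF4, rose from 6.81 ± 0.216 to 79.9 ± 2.12 TPM and from 16.8 ± 0.316 to 154.7 ± 8.29 TPM.

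The genes whose TPM followed ASNS most closely over the 12 samples were TRIM16L, KCNH8, DIP2B, PPP1R15A and PCK2, with Pearson's r of log2(TPM + 0.1) from 0.9963 to 0.9976. These values describe 12 points that fall into a CJ28 group and the rest, and 81 of the 13306 genes whose mean TPM reached 1 had an r above 0.99. PPP1R15A, a phosphatase subunit that reverses eIF2α phosphorylation, and PCK2, the mitochondrial phosphoenolpyruvate carboxykinase, had log2 fold changes of 2.33 and 2.02 with CJ28, beside the 1.98 of ASNS. KCNH8, a potassium channel gene, had 1.89, and TRIM16L and DIP2B had 1.01 and 0.84. Within the 10 genes, r with ASNS was 0.995 for PSAT1, 0.992 for SHMT2, 0.991 for PYCR1, 0.99 for CBS, 0.983 for MTHFD2, 0.922 for ALDH1L2, 0.907 for PHGDH, 0.182 for CTH and -0.938 for PSPH.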

How the data were processed

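Stranded total RNA libraries were made after ribosomal RNA depletion. The authors trimmed reads with Cutadapt (version 2.8), mapped them to GRCh38 with STAR (version 2.7.10b) and quantified genes with RSEM (version 1.3.3), tools and versions named in their processing notes, and the deposited table holds TPM per gene and sample, to 2 decimals. RSEM divides reads among near-identical genes. TPM is no count and keeps no depth, so the precision of single values was taken from the spread of replicates. The study's own comparisons used DESeq2, whose counts were not used here. Groups and replicate numbers came from sample titles, and no samples had identical values.

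From the deposited TPM, a linear model of log2(TPM + 0.1) was made by limma (lmFit and eBayes with trend; version 3.58.1 in R 4.3.3) over the 16815 genes with at least 0.5 TPM in at least 4 samples, with 12 samples in one fit, two-sided, with Benjamini-Hochberg adjustment over all of them. Isoenzyme ratios were compared by exact permutation of group means. The procedure was tested on simulated data in which far fewer genes changed than with CJ28, equally many up and down. How it performs with a change as broad as that of CJ28 was not tested. Python (version 3.11.15), pandas (version 2.3.3), numpy (version 2.4.6) and matplotlib (version 3.10.9) were used for the rest. Results of 1 isoenzyme pair and 2 genes of the lists are not reported here. Promoters came from a RefSeq table on GRCh38.p14. The 10 genes, the lists and the pairs were chosen with earlier results of these data known. Beside the 10 genes, numbered pseudogenes, CBSL, ATF4 and the isoenzymes, at most the 3 genes of a list with the largest called rise and the 3 with the largest fall and a mean TPM of at least 1 were named, and the 5 genes with the highest r with ASNS.

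Alternatives were pseudocounts of 1 and 0.01, other filters on low values, median-of-ratios scaling, fits of 2 groups, the replicate number as a block, the sum of CBS and CBSL, and leaving out each sample in turn.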

Additional observations from a re-analysis of the deposited data

Results flagged for a closer look

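The lowest and highest values of each gene in each group of 4 samples were examined by Dixon's test at the 95% level, which divides the gap to the next value by the range. Of 30 groups tested, 1 was beyond it, where about 1 in 20 would by chance alone: MTHFD2 had 25.79 TPM in VEH-3, above the 23.66 to 23.93 TPM of the other VEH samples, with a gap of 0.873 of the range. It was still far below the lowest CJ28 sample, 42.60 TPM.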

How the results depend on the processing

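The count of the 10 genes called was 9 for CJ28 against VEH and 9 against MET under every alternative but a mean TPM of at least 1, which removes ALDH1L2 and CTH from the test and gave 8 and 8, and 0 for MET against VEH under all of them. With the replicate block it was 9, 9 and 0, and 36 rather than 35 of the other pathway genes were called. Over all tested genes together, equal replicate numbers did not mark shared deviations (r of deviations from group means from -0.124 to 0.0394 over 12 pairs, and from -0.0974 to 0.103 over 36 others). Whether samples with the same number were handled together is not given in the sources used here. The replicate block changed no call of the 10 genes, and all-sample leave-one-out fits gave 33 to 36 pathway genes. PSPH stayed lower in CJ28 than in VEH throughout, from -0.49 to -0.31 on the log2 scale, and PHGDH stayed higher, from 0.44 to 0.66. With a pseudocount of 1, the difference of ALDH1L2/ALDH1L1 between CJ28 and MET reversed to -0.061. No isoenzyme ratio then stayed under 0.05 in the exact permutation test after adjustment. After median-of-ratios scaling, MAT2B, called lower with TPM as deposited, had 0.025 and was not called (limma adjusted p = 0.663). Values near or below 1 TPM, those of ALDH1L2 and CTH, are the least certain, and TPM holds no read count per gene from which their counting error could be given.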
